A study of Mus musculus with 3 samples.

Results

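The Notch pathway genes described here are 10 of the 32285 gene rows in each matrix, chosen by name and not by their values: the receptors Notch1, Notch2, Notch3 and Notch4, the ligands Jag1, Dll1 and Dll4, and the target genes Hes1, Hey1 and Hey2. They were measured by single-cell RNA sequencing of fracture callus, the repair tissue that bridges a broken bone. The mice were 9-week-old female C3H/HeJ animals, a strain that the study's design describes as slow to heal fractures. Each had a pin placed in the marrow cavity of 1 femur and a fracture at midshaft, and the callus was taken on day 7, away from the marrow, and digested with collagenase. The control library came from mice given vehicle (PBS). The PTH library came from mice given PTH 1-34, the active fragment of parathyroid hormone, at 100 µg/kg. The YKL library came from mice given YKL-05-099, an inhibitor of salt-inducible kinases, at 15 mg/kg. All 3 were daily subcutaneous injections. There was 1 library per group, and the labels do not say how many animals each library holds, so no test between treatments was possible. Every interval given is an exact 95% interval that covers counting error only, and a difference between libraries can be a difference between animals, dissections or library preparations.

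Notch receptors are single-pass membrane proteins that bind ligands of the Jagged and Delta families on a neighbouring cell. Binding is followed by cleavage by ADAM proteases and gamma-secretase, and the freed intracellular domain enters the nucleus, joins the DNA-binding protein RBPJ and Mastermind, and switches on repressors of the Hes and Hey families. In vessels the pathway sets the balance of tip and stalk cells, artery identity and the coating of vessels by pericytes and smooth muscle. In the skeleton it holds mesenchymal progenitors back from maturing and takes part in cartilage turnover.

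The sequences just upstream of 2 members expressed in mural cells, the pericytes and smooth muscle cells of vessels, are shown because RBPJ binds a short DNA word and only 1 member carried it. RefSeq promoter windows (assembly GRCm38.p6) were matched for 8 of the 10 genes, Hes1 and Hey1 having no entry in the table. They were searched on both strands for TGGGAA, the core of the RBPJ site, and for the longer GTGGGAA, which contains it. TGGGAA occurred in 25.6% and GTGGGAA in 6.38% of 32851 promoter windows of the same length. Among the 8 matched members only Hey2 had a match, with 2 copies of GTGGGAA. Their leftmost bases lie 207 and 4 bases before the start that RefSeq gives, the first copy being on the opposite strand, and the second runs 3 bases past that start. The RefSeq start lies 18 bases inside the GENCODE M21 gene body of Hey2, so the second copy falls within that body. Hey2, a basic helix-loop-helix repressor, is printed from chr10:30842781-30843033, and Notch3, a receptor of the same cells with no match, from chr17:32166891-32167140. Both are on the minus strand and written 5′ to 3′ on the gene's strand, with the matches in capitals.
Hey2: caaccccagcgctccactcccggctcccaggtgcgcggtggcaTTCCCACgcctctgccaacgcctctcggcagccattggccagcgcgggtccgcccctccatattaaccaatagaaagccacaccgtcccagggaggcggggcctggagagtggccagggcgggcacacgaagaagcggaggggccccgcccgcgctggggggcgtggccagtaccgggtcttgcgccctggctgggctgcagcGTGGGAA
Notch3: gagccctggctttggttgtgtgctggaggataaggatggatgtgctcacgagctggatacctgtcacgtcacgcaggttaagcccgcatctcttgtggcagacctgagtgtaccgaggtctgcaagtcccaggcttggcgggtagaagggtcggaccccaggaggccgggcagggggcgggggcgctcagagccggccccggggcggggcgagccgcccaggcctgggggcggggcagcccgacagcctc
A match describes the letters in the window and not binding, and the absence of one says only that these letters are not there.

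The matrices held 8021, 5286 and 1500 barcodes for control, PTH and YKL, with 55250651, 33981167 and 19424073 unique molecular identifiers (UMIs, counts of captured RNA molecules). A barcode was kept as a cell when it had 500 or more genes and no more than 10% mitochondrial UMIs, which left 2901, 1911 and 593 cells with medians of 11633, 12288 and 25669 UMIs. The control and PTH libraries shared 8 barcodes, of which 1 passed as a cell in both, control and YKL shared 3 and PTH and YKL shared 2, with none kept in both. Cells were clustered without the Notch genes and named from marker lists as chondrocyte-like, endothelial-like and so on, written without "like" from here. In the order control, PTH and YKL there were 1429, 654 and 395 chondrocytes, 186, 293 and 51 endothelial cells, 110, 277 and 17 fibroblasts, 75, 60 and 8 mural cells, 140, 79 and 19 macrophages and 464, 21 and 15 neutrophils. Tendon cells were a PTH class, with 2, 231 and 2 cells. All 12 endothelial markers were detected in endothelial cells, all 12 mural markers in mural cells and all 13 chondrocyte markers in chondrocytes, in each library. The names came from these lists, so this detection is no test of them. All 12 mural and all 13 chondrocyte markers were also detected in endothelial cells of control and PTH. Levels are in CPM, the UMIs of a gene scaled to 1000000 UMIs of its class in the library, and because the kit reads 3′ ends they are compared between cells and not between genes. Haemoglobin and other red cell markers summed to 85658, 10902 and 28862 CPM in endothelial cells and to 62822, 6989 and 723 CPM in mural cells, so control levels in these classes were taken over UMIs that include more red cell RNA; the part of this in the ratios was not tested beyond the alternatives given with them.

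The receptors differed in where they lay among the cell classes, except that Notch1 and Notch4 were both highest in endothelial cells. Notch1 (chr2:26457903-26516663, minus strand; all positions are GENCODE M21 gene bodies on GRCm38, and all 10 genes are protein coding) was highest in endothelial cells, where it acts in sprouting and artery identity. Its level there was 153 CPM in control (95% interval 132 to 176, 196 UMIs), 171 in PTH (154 to 188, 401 UMIs) and 183 in YKL (144 to 229, 77 UMIs), with no overlap with the next of the 8 classes ranked. Schwann or glial cells, too few to rank, are described at the end. Thinned to 2000 UMIs, 28.0% and 19.4% of them had a Notch1 UMI in control and PTH (25 and 36 cells). Mural cells had 40.4 and 34.5 CPM in control and PTH, and control neutrophils 38.6 CPM; these neighbours in the order overlapped. Fibroblasts had 11.5 and 6.12 CPM, macrophages 15.2 and 19.9 CPM, and chondrocytes the lowest levels of the 8 classes ranked, at 2.0, 3.07 and 2.61 CPM. With every cell thinned to 2000 UMIs, 34.2%, 33.1% and 30.2% of endothelial cells had a Notch1 UMI in control, PTH and YKL, against 0.356%, 0.156% and 1.03% of chondrocytes; 25, 36 and 8 endothelial cells were too shallow and left out. Without thinning, 54.8%, 60.8% and 72.5% of endothelial cells had one (median UMIs 5252, 6033 and 6197), so the upward order across libraries was not there at equal depth.

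Notch2 (chr3:98013527-98150361, plus strand), the receptor most tied to bone cell and marrow biology, was found in connective tissue, myeloid and mural cells and was lowest, of the 8 classes ranked, in endothelium. Endothelial cells held 3, 7 and 1 Notch2 UMIs in control, PTH and YKL, or 2.34, 2.98 and 2.38 CPM, and mural cells 3 and 11 UMIs in control and PTH, or 4.67 and 23.7 CPM. Fibroblasts had 25.8 CPM in control (17.3 to 37.0) and 48.0 in PTH (40.6 to 56.4), PTH tendon cells 36.3 CPM, control neutrophils 48.0 CPM and macrophages 24.9 and 19.0 CPM. Neutrophils, fibroblasts and tendon cells overlapped at the top of the order. Chondrocytes had 8.01, 16.9 and 10.0 CPM. Thinned, 3.64% and 9.19% of fibroblasts in control and PTH had a Notch2 UMI (20.9% and 40.1% unthinned), and of chondrocytes 1.5%, 3.75% and 2.06% (11.3%, 24.8% and 25.6% unthinned), against 0.389% of endothelial cells in PTH and 0 of 161 and 0 of 43 in control and YKL, which allows up to 1.86% and 6.98%.

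Notch3 (chr17:32120820-32166852, minus strand), the receptor of vascular smooth muscle and pericytes, was concentrated in mural cells. Mural cells had 591 CPM in control (533 to 654, 380 UMIs) and 642 in PTH (572 to 719.7, 298 UMIs), and the 8 YKL mural cells had 737 CPM. Of the 8 classes ranked, endothelial cells followed at 30.5, 29.3 and 35.6 CPM, with no overlap, and chondrocytes had 1.04, 0.997 and 1.5 CPM. Cluster 19, left unnamed and led by muscle genes, was not ranked. It had 68.8 CPM in 11 control cells and 238 CPM (175 to 317) in 29 PTH cells. Thinned, 74.3% and 79.3% of mural cells in control and PTH had a UMI, against 0.0712% and 0.156% of chondrocytes. Unthinned, 97.3% and 91.7% of mural cells had one, at medians of 7263 and 5348 UMIs.

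Notch4 (chr17:34564268-34588503, plus strand) is a receptor known mainly from endothelium, and it stood there in all 3 libraries. Its endothelial level was 101 CPM in control (84.1 to 119.7, 129 UMIs), 97.4 in PTH (85.2 to 111, 229 UMIs) and 121 in YKL (90.2 to 159, 51 UMIs). No other ranked class overlapped it: macrophages, next in order, had 4.16 and 12.3 CPM in control and PTH, mural cells 3.11 and 10.8 CPM, and chondrocytes 1.42, 1.33 and 1.58 CPM.

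**Figure D1:**
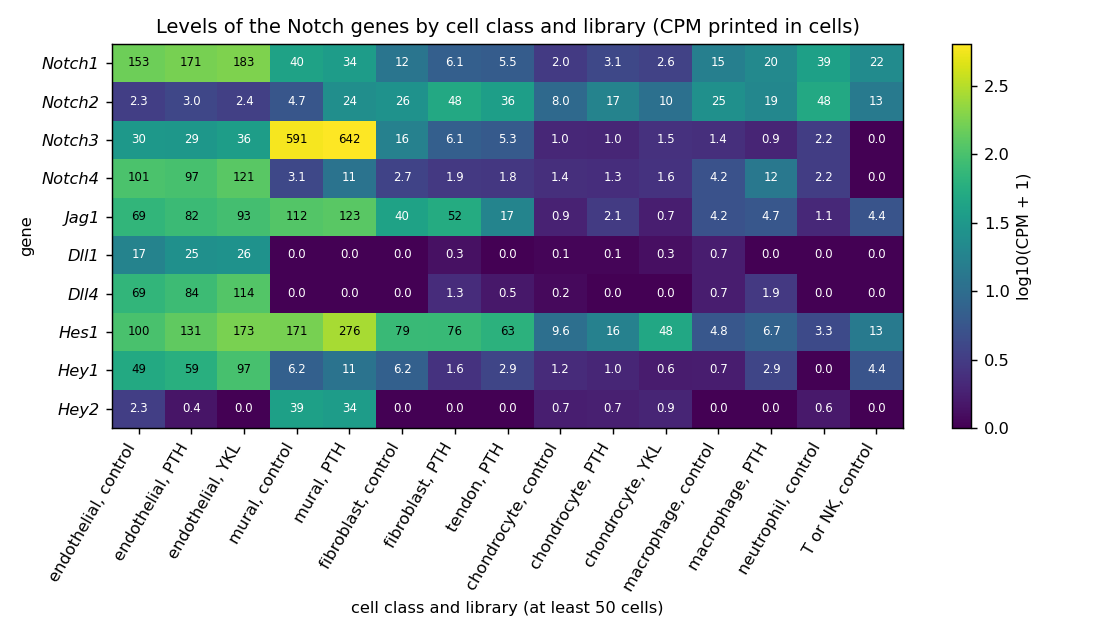
Heat map of the level of each of the 10 Notch genes (rows) in each class and library with at least 50 cells (columns); colour is log10(CPM + 1) and the CPM is printed in each square, with no error shown. Notch1, Notch4, Dll1, Dll4 and Hey1 stand highest in the endothelial columns and Notch3 and Hey2 in the mural ones, while Hes1 reaches both as well as fibroblasts.

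The ligands split between a shared one and those of the endothelium. Jag1 (chr2:137081456-137116644, minus strand), which signals from endothelium to mural cells and within the arterial wall, had 112 CPM in control mural cells (87.6 to 141), 123 in PTH (93.1 to 159) and 164 in the 8 YKL cells. Endothelial cells had 68.7, 82.1 and 92.7 CPM in control, PTH and YKL, and fibroblasts 40.0 and 52.2 CPM in control and PTH. Mural and endothelial values did not overlap between libraries, but their intervals did. Chondrocytes had 0.876, 2.08 and 0.711 CPM.

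Dll4 (chr2:119325784-119335962, plus strand), the ligand of tip cells and arteries, was almost wholly endothelial. Its level was 68.7 CPM in control (88 UMIs), 84.2 in PTH (198 UMIs) and 114 in YKL (48 UMIs). Of all Dll4 UMIs in kept cells, endothelial cells held 82.2% in control, 92.5% in PTH and 100.0% in YKL. Mural cells had 0 UMIs in each library, and 3 counts, the limit that a count of 0 allows, would be 4.67 CPM in control and 6.47 CPM in PTH. Thinned, 14.3%, 15.2% and 25.6% of endothelial cells had a UMI, against 0.0712% of control chondrocytes and 0 of 640 and 0 of 388 in PTH and YKL, which allows up to 0.469% and 0.773%. Without thinning, 25.8%, 29.7% and 37.3% of endothelial cells had one. Dll1 (chr17:15367354-15376872, minus strand), a Delta ligand with roles in arteries and in many progenitors, was lower in counts but had the same place. Endothelial cells had 17.2, 24.7 and 26.1 CPM from 22, 58 and 11 UMIs, mural cells had 0 UMIs, and chondrocytes had 2, 1 and 4 UMIs.

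Among the targets, Hes1 (chr16:30064384-30067796, plus strand), a basic helix-loop-helix repressor that also answers to signals other than Notch, had the widest spread. Mural cells had 171 and 276 CPM in control and PTH and 246 CPM in the 8 YKL cells, and endothelial cells 100.0, 131 and 173 CPM in control, PTH and YKL; the classes overlapped. Fibroblasts had 79.1 and 76.4 CPM and PTH tendon cells 62.6 CPM. Chondrocytes were far lower in control, at 9.63 CPM (8.43 to 11.0, 231 UMIs), and had 16.0 CPM in PTH (13.9 to 18.5, 193 UMIs) and 47.8 CPM in YKL (44.1 to 51.8, 605 UMIs), with no overlap between the libraries. Macrophages had 4.85 and 6.65 CPM and control neutrophils 3.31 CPM. Of the 17 YKL fibroblasts, 8 held all of that class's Hes1 UMIs, giving 329 CPM, too few cells to compare.

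Hey1 (chr3:8663359-8667256, minus strand) and Hey2 (chr10:30832359-30842801, minus strand) are related repressors of artery and smooth muscle fate, and here they lay in different classes. Hey1 had 49.2, 58.7 and 97.4 CPM in endothelial cells (63, 138 and 41 UMIs), and 6.22 and 10.8 CPM in mural cells of control and PTH. Hey2, the gene with the GTGGGAA words near its start, had 38.9 and 34.5 CPM in mural cells of control and PTH (25 and 16 UMIs), and 9 UMIs in the 8 YKL mural cells. In endothelial cells it had 2.34, 0.425 and 0 CPM. Chondrocytes had 1.21, 0.997 and 0.632 CPM of Hey1 and 0.709, 0.748 and 0.948 CPM of Hey2.

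Receptor and ligand were often found in the same vessel cell and rarely in the same chondrocyte. At least 1 UMI of a member receptor together with at least 1 of a member ligand was present in 38.7%, 44.7% and 54.9% of endothelial cells in control, PTH and YKL. The shares were 41.3% and 45.0% of mural cells and 16.4% and 20.2% of fibroblasts in control and PTH. Among chondrocytes, which had more UMIs per cell, with medians of 16665, 18047 and 30604 UMIs, they were 0.560%, 1.68% and 0.759%. A receptor UMI, with or without a ligand UMI, was found in 17.1%, 31.0% and 36.5% of chondrocytes, and a ligand UMI in 1.82%, 3.67% and 3.29%.

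Within the endothelium, members differed along the artery, tip and vein programs. The class was split into 7 subclusters with the Notch genes again left out, so the levels below did not make the split. Subcluster 0 (31 control and 45 PTH cells) had the highest level of the artery list and was led by genes such as Gja5, Gja4 and Sema3g. Subcluster 3 (20 and 41 cells) had the highest level of the tip cell list, with Esm1 and Apln. Subcluster 4 (44 and 97 cells) had the highest level of the vein list, with Ackr1, Selp and Vwf. Subcluster 2 (39 and 72 cells) was led by Cxcl12 and Rgcc. Subclusters 1, 5 and 6 were led by haemoglobin, by cartilage and neutrophil genes, and by mural genes.

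Jag1 and Hey1 were concentrated in the artery-list subcluster of both libraries. Jag1 had 274 and 337 CPM there in control and PTH, against 18.3 and 12.3 CPM in subcluster 2, 22.9 and 41.9 CPM in the tip-list subcluster and 29.2 and 29.7 CPM in the vein-list subcluster. Hey1 had 186 and 221 CPM in the artery-list subcluster, 97.5 and 61.6 CPM in subcluster 2, 30.5 and 18.3 CPM in the tip-list one and 0 and 8.09 CPM in the vein-list one. Dll4 and Notch4 were high at both the artery and the tip end. Dll4 had 152 and 154 CPM in the artery-list subcluster and 114 and 188 CPM in the tip-list one, against 39.0 and 21.6 CPM in the vein-list one. Notch4 had 200.4 and 181 CPM, 206 and 181 CPM, and 22.7 and 40.5 CPM in the same order.

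The remaining members were less tied to this axis. Notch1 had 269 and 243 CPM in the artery-list subcluster, 83.9 and 194 CPM in the tip-list one and 149 and 121 CPM in the vein-list one. Dll1 was highest in the vein-list subcluster, at 39.0 and 40.5 CPM, with 14.7 and 18.9 CPM in the artery-list one. Hes1 had 122 and 80.9 CPM, 145 and 133 CPM, and 68.2 and 105 CPM in the artery-, tip- and vein-list subclusters, with the 2 libraries ordering artery and vein differently. Jag2, a pathway ligand outside the 10, had 196 and 299 CPM in the artery-list subcluster. It had 61.0 and 83.7 CPM in the tip-list one and 26.0 and 41.8 CPM in the vein-list one. It shared its highest subcluster with Jag1, but not the order of the others. Notch3 was at 0 in the artery- and tip-list subclusters over all libraries, and 115 of the 123 endothelial Notch3 UMIs lay in subcluster 6, at 282 CPM (233 to 338), in 24 of its 26 cells. That subcluster carried 7526 CPM of mural markers, so the Notch3 level of the endothelial class came with mural RNA.

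**Figure D2:**
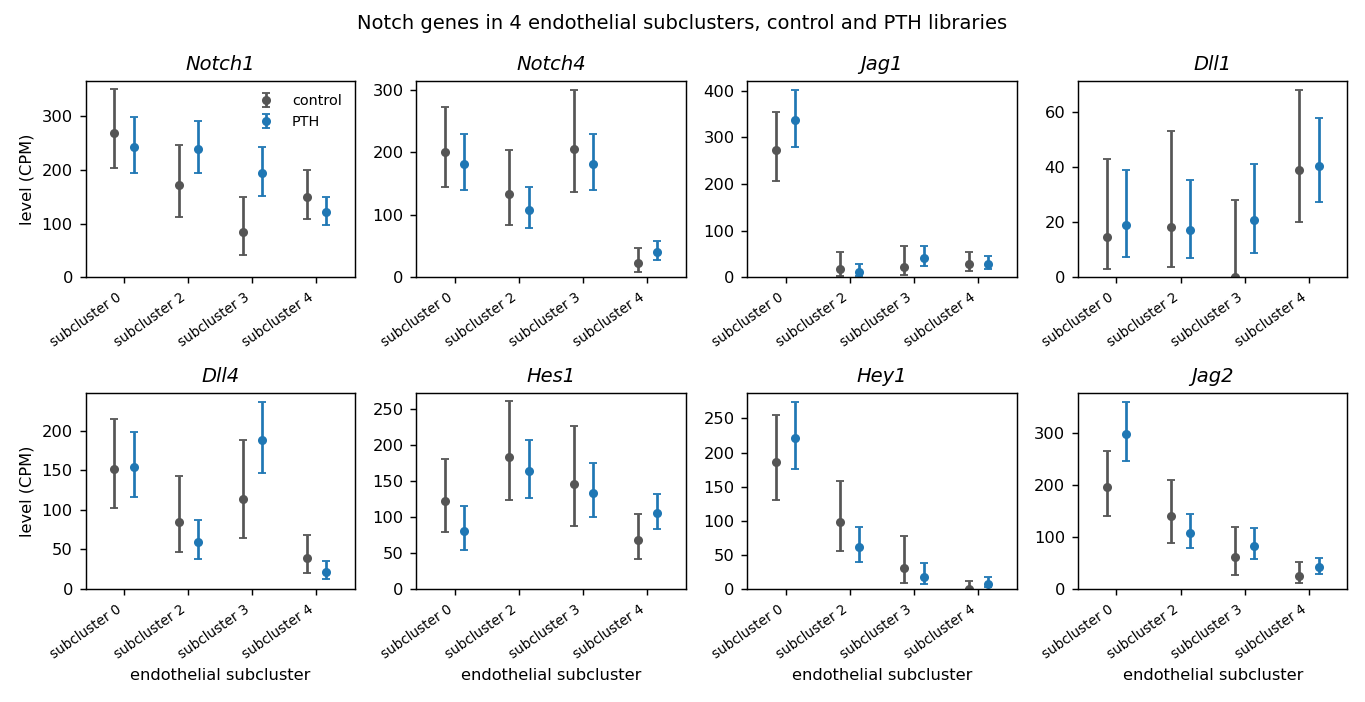
Level (CPM) of 7 Notch genes and Jag2 in endothelial subclusters 0, 2, 3 and 4 (horizontal axis) of the control and PTH libraries (colour), with bars for exact 95% Poisson intervals. Jag1 and Hey1 are highest in subcluster 0, which has the highest artery list, and Dll4 and Notch4 are low in subcluster 4, which has the highest vein list.

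Mural cells were split in the same way, with all libraries summed because of their small number. Subcluster 0 (32 cells) had the highest pericyte list and Notch3 at 934 CPM (794 to 1092). Subcluster 1 (31 cells) had the highest smooth muscle list and Notch3 at 573 CPM (491 to 664). The order differed between libraries: Notch3 had 1019.6 CPM (799 to 1282) in the pericyte one and 494 CPM (397 to 608) in the smooth muscle one in control, but 722 CPM (551 to 929) and 892 CPM (679 to 1151) in PTH. Jag1 had 236 CPM (184 to 297) in the smooth muscle one and 143 CPM in the pericyte one, and Hey2 had 68.7 and 71.4 CPM. Heyl, a Hey family target outside the 10, had 157 and 249.9 CPM. Subcluster 2, led by haemoglobin genes, had 441 CPM of Notch3. Subcluster 3 (49 cells) had 619 CPM and was led by Ccl19 and Colec11, with Col10a1, Hapln1 and Snorc also among its leading genes. It had 18026 CPM of the smooth muscle list and 7900.4 CPM of chondrocyte markers.

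For treatment comparisons a gene counted as called when its CPM differed at least 1.5-fold between 2 libraries of a class with at least 50 cells in each and at least 50 UMIs of the gene over both; no test stands behind a call. Comparisons against control share the control library, and comparisons with YKL share the YKL library. In endothelial cells, PTH and control did not differ 1.5-fold for any of the 8 members measured, while 13.1% of 7401 genes were called. The ratio of PTH to control was 1.11 for Notch1 (0.937 to 1.33), 0.966 for Notch4, 1.19 for Jag1, 1.22 for Dll4 (0.948 to 1.59), 1.44 for Dll1 (0.865 to 2.46) and 1.19 for Hey1. Hes1, at 1.31 (1.07 to 1.63), was the only one whose interval lay above 1. It was 1.01 without the subclusters led by blood, cartilage or mural genes. At a mitochondrial maximum of 5%, Dll4, Hes1 and Hey1 were at 1.87, 1.90 and 1.73.

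Between YKL and control endothelial cells, 3 of 7 measured members were called, all higher in YKL, with 20.7% of 4775 genes called. They were a ligand and a pair of targets. Dll4 was 1.66-fold higher (1.14 to 2.38), Hes1 1.73-fold (1.28 to 2.33) and Hey1 1.98-fold (1.30 to 2.98). The receptors Notch1 and Notch4 were at 1.19 and 1.2 and Jag1 at 1.35 (0.900 to 1.99). The median log2 ratio was 0.43 over the 7 members and 0.13 over all genes measured. These values rest on 51 YKL cells, of which 19, 23 and 11 held a UMI of Dll4, Hes1 and Hey1. Of the 41 YKL Hey1 UMIs, 32 lay in 6 cells of the artery-list subcluster. Hey1 had 186 CPM there in control and 469 CPM in YKL, while Hes1 had 122 and 117 CPM (8 YKL UMIs). The 2 targets were thus not both higher in that subcluster. The YKL level of Hes1 in the vein-list subcluster is given at the end. Without the cell richest in the gene in each library, Dll4, Hes1 and Hey1 were at 1.57, 1.73 and 1.55. Without the subclusters led by other cells' genes, which left 45 YKL cells, the ratios were 1.40 for Dll4 and 1.54 for both Hes1 and Hey1. Between YKL and PTH, 1 of 8 members was called, with 19.1% of 6644 genes: Hey1, at 1.66 (1.14 to 2.37), which was 1.26 without the cell richest in Hey1 in each library. Genes of the list that marks dissociation stress summed to 1539.8, 2843 and 3115 CPM in endothelial cells of control, PTH and YKL; its part in the ratios was not tested.

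In mural cells, PTH against control called 1 of 3 members, with 15.1% of 3293 genes. Hes1 was 1.61-fold higher in PTH (1.24 to 2.10), while Notch3 was at 1.09 (0.931 to 1.27) and Jag1 at 1.10 (0.761 to 1.58). In the pericyte-list subcluster Hes1 had 251 CPM in control (149 to 397, 18 UMIs) and 132 CPM in PTH (66.1 to 237, 11 UMIs). In the smooth muscle one it had 161 CPM (108 to 231) and 212 CPM (116 to 355). It had 174 and 429 CPM in the haemoglobin-led one, and 154 and 297 CPM in subcluster 3. Only the pericyte-list subcluster had the lower Hes1 value in PTH, and its intervals overlapped. A difference in direction between subclusters is thus not settled. Each subcluster had 10 to 25 cells per library. Red cell RNA was the larger in control, while dissociation genes had 3523 CPM in control and 5381 CPM in PTH mural cells, chondrocyte markers 3289 and 4861 CPM and the hypertrophic list 1375 and 3184 CPM; the part of these was not tested. In fibroblasts, 1 of 3 members was called, with 17.0% of 7694 genes. Notch2 was 1.86-fold higher in PTH (1.2 to 2.88), while Jag1 was at 1.31 and Hes1 at 0.966 (0.754 to 1.2), or 1.52 on thinned counts. In control and PTH fibroblasts, dissociation genes had 1227 and 2447 CPM, red cell markers 18657 and 4409 CPM, chondrocyte markers 944 and 227 CPM and the hypertrophic list 391 and 95 CPM; their part was not tested. In macrophages the only member measured, Notch2, was at 0.762 (0.418 to 1.35), with 27.3% of 5121 genes called.

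**Figure D3:**
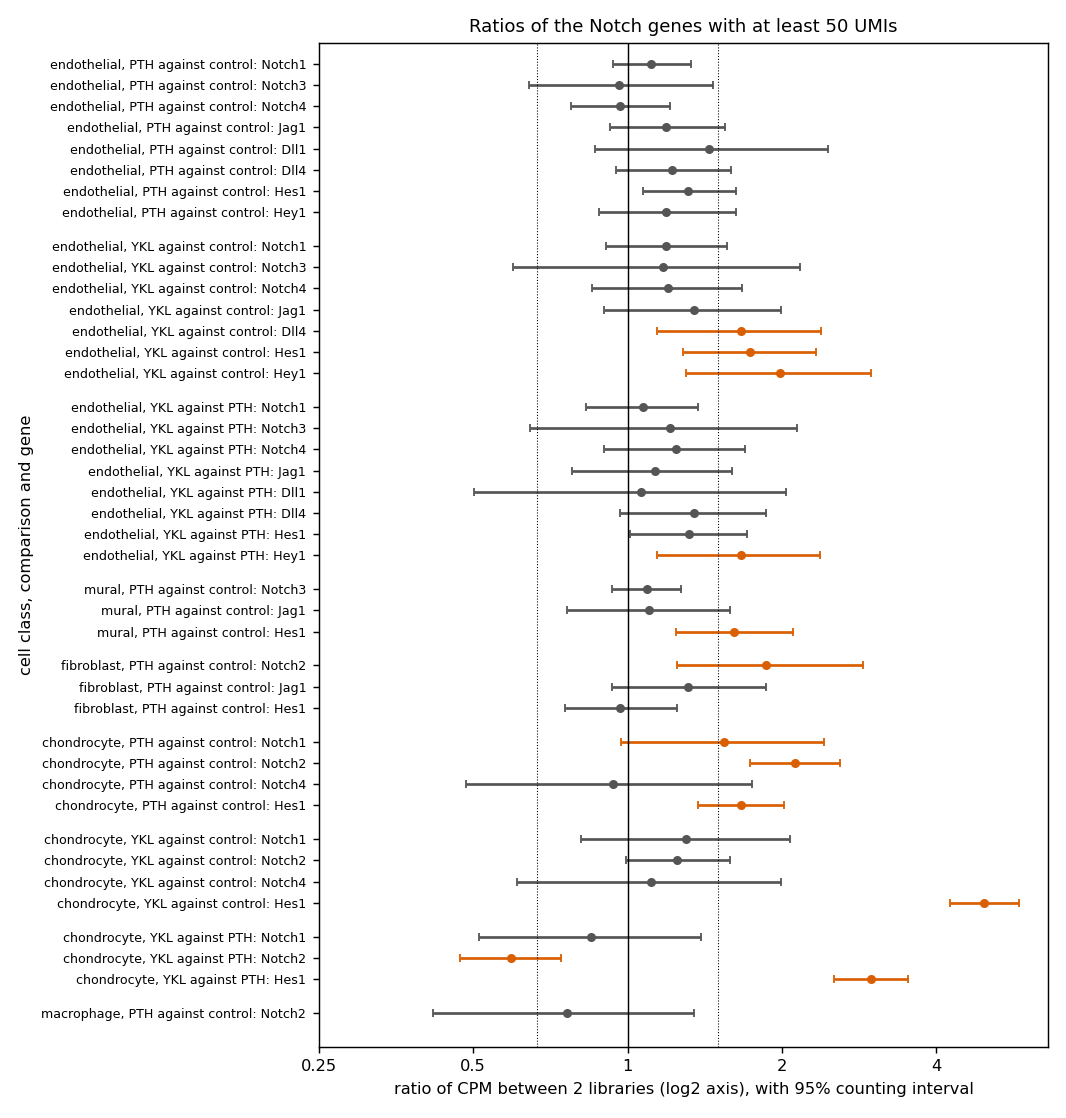
Ratio of CPM between 2 libraries for each measured member, by class and comparison, on a log axis with exact 95% intervals for counting error; dotted lines mark 1.5-fold either way and orange points are at least 1.5-fold apart. Hes1 in chondrocytes of YKL against control lies farthest from 1, at 4.96, and no member is called in endothelial cells of PTH against control.

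Chondrocytes gave the largest member ratios. PTH against control called 3 of 4 members, all higher in PTH, with 8.63% of 11280 genes: Notch2 at 2.12 (1.73 to 2.59), Hes1 at 1.66 (1.37 to 2.02) and Notch1 at 1.54 (0.972 to 2.41), whose interval includes 1. YKL against control called 1 of 4, with 18.3% of 11336 genes: Hes1, at 4.96 (4.26 to 5.80), with Notch1 at 1.30 (0.810 to 2.07) and Notch4 at 1.11, and an interval of 0.993 to 1.58 for Notch2. Notch1 was at 0.649 with clusters weighted equally. YKL against PTH called 2 of 3, with 13.1% of 10751 genes, in opposite directions: Hes1 at 2.98 (2.53 to 3.52) and Notch2 at 0.592 (0.471 to 0.742). The Hes1 ratio of YKL to PTH was 4.92 in cluster 7 and 7.34 in cluster 8, but 0.975 in cluster 3 and 0.589 in cluster 14 (0.391 to 0.889), so its direction turned between clusters. A Hes1 UMI was found in 9.52%, 14.7% and 27.1% of chondrocytes of control, PTH and YKL. Thinned to 2000 UMIs the shares were 1.64%, 3.44% and 6.19%, against 0.557% of control neutrophils, a class at the low end for Hes1. On thinned counts Hes1 was 2.61-fold higher in YKL than in control and 1.65-fold higher than in PTH, and Notch2 was 3.69-fold higher in PTH than in control, from levels near that of 1 UMI in few cells.

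The chondrocyte class was not made of the same clusters in each library, and the ratios differed between clusters. Control chondrocytes were mostly of clusters 0 and 1 (534 and 381 cells), both with Col9a3, Hapln1, Ucma and Cnmd among their leading genes. YKL chondrocytes were mostly of clusters 3, 7, 8 and 14 (98, 65, 86 and 108 cells), of which 3, 7 and 14 had Ibsp among their leading genes and 14 had Col10a1 and Ihh. PTH had cells in all of them. The hypertrophic list summed to 8738, 13661 and 20816 CPM in chondrocytes of control, PTH and YKL, and dissociation genes to 3148, 4754 and 4822 CPM. A list of immature cartilage genes summed to 12331, 11156 and 11112 CPM in the same order. With libraries together, that list had 10732 and 14347 CPM in clusters 0 and 1. It had 14301, 13878, 7322 and 8232 CPM in clusters 3, 7, 8 and 14, which also had Hapln1 among their leading genes. Endothelial markers stayed at 26.7, 32.1 and 15.2 CPM and mural markers at 278, 305 and 286 CPM.

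Hes1 differed most in cluster 7, whose leading genes include Ibsp, Cdkn1c and Panx3. It had 4.14 CPM in control, 25.1 CPM in PTH and 124 CPM in YKL, a 29.9-fold ratio of YKL to control (13.6 to 82.0) and a 6.07-fold ratio of PTH to control (2.54 to 17.6). It was found in 4 of 72 control cells and 35 of 65 YKL cells, which held 6 and 376 UMIs, and positive YKL cells had a median of 7 UMIs and at most 38. The same cluster also differed in depth, with medians of 21309, 27841 and 46420.0 UMIs in control, PTH and YKL. Its dissociation genes summed to 882, 2432 and 4206 CPM, in the same order as Hes1, and its hypertrophic list to 30801, 35857 and 12910.4 CPM. Their part in the Hes1 difference was not tested.

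In cluster 8, Hes1 was 6.70-fold higher in YKL than in control (3.33 to 15.3; 28.8 against 4.30 CPM), with dissociation genes at 5999.6 and 5944 CPM, the hypertrophic list at 7078 and 2278 CPM and medians of 27538 and 13784 UMIs; their part was not tested. In cluster 3 it was 2.09-fold higher (1.42 to 3.11), and in cluster 14, the cluster with Col10a1 and Ihh, 1.14. PTH against control gave 2.14 in cluster 3 (1.35 to 3.39) and 1.94 in cluster 14 (1.2 to 3.19), but 0.586 in cluster 0 (0.306 to 1.04) and 0.913 in cluster 8. Notch2 was higher in PTH than in control in most clusters: 1.98-fold in cluster 0 (1.28 to 3.01), 2.80-fold in cluster 1 (1.97 to 3.99), 2.04-fold in cluster 3 (1.04 to 3.99) and 4.33-fold in cluster 8 (1.66 to 13.3), with 1.64 in cluster 14 and 0.815 in cluster 7. Its level was highest in cluster 6, left unnamed and led by Ibsp, Spp1, Col1a1 and Mmp13, at 38.9 and 57.9 CPM in control and PTH.

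**Figure D4:**
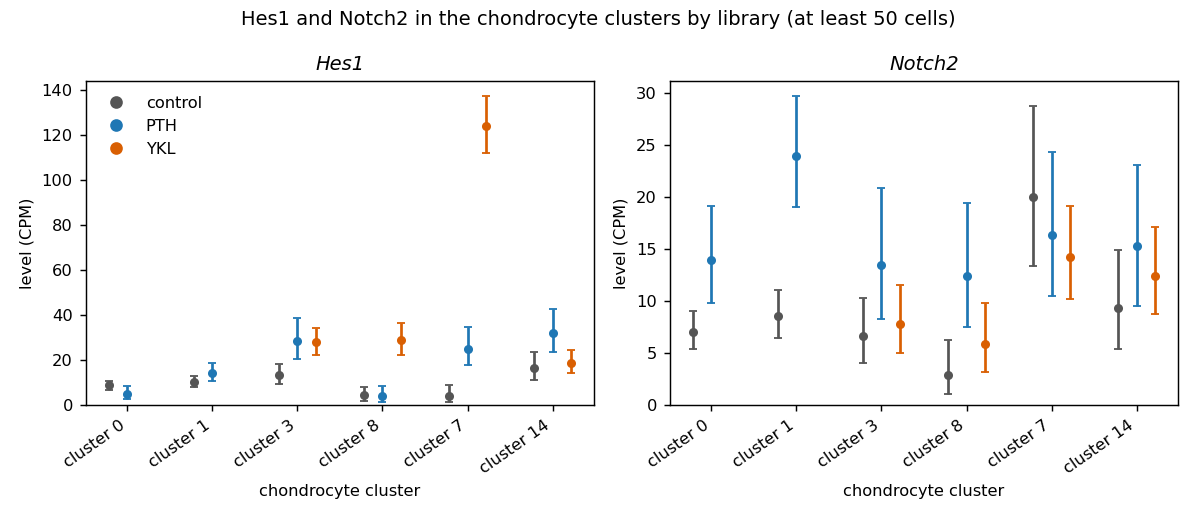
Level (CPM) of Hes1 and Notch2 by chondrocyte cluster (horizontal axis) and library (colour), where a library has at least 50 cells of the cluster, with bars for exact 95% Poisson intervals. Hes1 in cluster 7 runs from 4.14 in control to 124 in YKL, and Notch2 in PTH lies above control in every cluster shown but cluster 7.

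Another 42 genes of the pathway, in 7 lists by role, showed how far the rest of the machinery moved. The DNA-binding partner Rbpj was present at like levels in chondrocytes (40.8, 43.0 and 39.6 CPM) and endothelial cells (32.0, 28.1 and 33.3 CPM), and at 45.1 and 66.8 CPM in mural cells of control and PTH. In endothelial cells of PTH against control, 3 of 27 measured were called higher and 0 lower, near the 13.1% called over all genes, among them the gamma-secretase subunit Ncstn at 1.61 (1.04 to 2.57). The coactivator Maml3 was also called, at 1.63, with an interval that includes 1 (0.911 to 3.08). YKL against control called 5 of 20 higher and 0 lower, near the 20.7% called over all genes: the ligand Jag2 at 2.29 (1.67 to 3.13), Neurl1b, which helps ligands be taken up, at 2.61 (1.55 to 4.37), Ncstn at 2.72 (1.52 to 4.83), and the glycosyltransferase Lfng at 2.26 (1.31 to 3.86) were the 4 farthest from 1. YKL against PTH called 6 of 25 higher and 0 lower, with 19.1% called over all genes, again with Neurl1b at 2.89 (1.79 to 4.56) and Jag2 at 1.7 (1.29 to 2.22). Jag2 stood at 75.8, 102 and 173 CPM in control, PTH and YKL. Other genes that led their role lists in UMIs differed less than Jag2 in YKL against control: the protease Adam10 had 178, 210.1 and 228 CPM, the fringe gene Mfng 85.2, 88.5 and 90.3 CPM, and the target Nrarp 40.6, 59.1 and 45.1 CPM. In PTH against control Nrarp was at 1.46 (1.05 to 2.04) and Jag2 at 1.35 (1.06 to 1.72), neither of them called.

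In mural cells of PTH against control, 5 of 11 measured pathway genes were called higher and 1 lower, with 15.1% called over all genes. Heyl, a Notch target of smooth muscle, was 1.65-fold higher (1.18 to 2.30; 107 and 177 CPM), and Dtx3, of the Deltex family, 1.68-fold (1.29 to 2.20; 162 and 272 CPM). The other higher calls were less firm. Snw1 was at 1.56 (1.04 to 2.34), and the intervals of Aph1a, at 1.65 (1.00 to 2.72), and Itch, at 1.57 (0.933 to 2.66), reach 1. Jag2 was at 0 UMIs in mural cells of every library. In fibroblasts 0 of 27 were called higher and 2 lower, against 17.0% called over all genes: Dlk1, a Delta-like protein of progenitors that lacks the usual receptor-binding domain, at 0.284 (0.232 to 0.347; 199.9 against 56.7 CPM), and Maml3 at 0.625. In mural cells Dlk1 was at 0.381 (0.195 to 0.698).

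Chondrocytes had Dlk1 in the opposite direction, at 3.10 in PTH against control (2.52 to 3.81; 6.55 against 20.3 CPM), where 2 of 30 pathway genes were called higher and 1 lower, near the 8.63% called over all genes. Maml3 was the other higher one, at 1.92 (1.41 to 2.62), and Dlk2 the lower one, at 0.632 (0.502 to 0.789). In YKL against control 2 of 30 were called higher and 4 lower, near the 18.3% called over all genes, with Dlk1 at 0.446 (0.303 to 0.642). In YKL against PTH 0 of 30 were called higher and 2 lower, against 13.1% called over all genes, with Dlk1 at 0.144 (0.0992 to 0.204). Dlk2, which led the list of other ligands in control and YKL, had 13.8, 8.72 and 9.09 CPM in control, PTH and YKL. Leaders of 4 other role lists differed less from control than Dlk2 did: Psenen, of gamma-secretase, had 142, 129.7 and 139.6 CPM, the nuclear cofactor Snw1 84.0, 92.0 and 90.5 CPM, the ubiquitin ligase Itch 42.9, 42.8 and 43.3 CPM, and Mib1, which activates ligands, 23.9, 28.4 and 22.4 CPM. In macrophages 2 of 16 were called higher and 1 lower, against 27.3% called over all genes.

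The genes whose levels across 15 class-by-library sums from 8 classes were most like each member, by Pearson correlation of log2(CPM + 10) among 9391 candidates, followed the class where the member lay. For Dll4 they were Tie1, Adgrg1 and Ccm2l (each 0.999), and for Notch4 Cenpt, Sox17 and Cd300lg (0.989, 0.987 and 0.986). For Notch3 they were Gucy1b1, Susd2 and Gucy1a1 (0.992, 0.992 and 0.988), of which the first and last encode subunits of soluble guanylate cyclase. For Hey2 they included Cnn1, a smooth muscle calponin (0.995), and for Notch1 Entpd1, an enzyme that breaks down extracellular ATP (0.964). The most alike gene for Notch2 was Rhou (0.847) and for Hes1 Sox4 (0.962). These values describe the sums, which share libraries and depth, and carry no test.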

How the data were processed

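Single-cell 3′ libraries (10x v3 kit) of 3 groups were analysed, 1 library each. The deposited matrices hold UMI counts per gene and barcode, not normalized. Per the file headers, Cell Ranger 4.0.0 wrote them; the submitters' processing notes also name Seurat and mm10, with no role given. Cells were normalized to 10000 UMIs and clustered with scanpy 1.11.5 (2000 variable genes without the Notch genes, 30 components, 15 neighbours, Leiden resolution 0.8). Scrublet marked 43, 2 and 13 cells, under 0.5% of PTH, so doublet removal there has not worked and doublets remain possible. Clusters were named from 19 marker sets; the rules for leaving 5 clusters unnamed (369, 243 and 70 cells) were settled after the cluster tables were seen. UMIs were summed per class and library. Levels have exact Poisson intervals and ratios exact conditional binomial intervals. The ratio intervals were run on counts simulated from the counting model they assume, with no differences between cells. That run cannot tell how well they cover these data. In it, 7.91% of unchanged genes passed 1.5-fold for endothelial YKL against control, 4.99% for endothelial PTH against control and 1.62% for chondrocyte YKL against control. With 1 library per group there is no replicate and no test. The named pathway genes are, per class and comparison, up to 4 past 1.5-fold whose interval bound nearest 1 is farthest from 1, and the most abundant of each role list, from which the text gives examples; like genes are the 3 with the highest correlation among genes reaching 20 CPM. The members and lists were chosen with earlier results of these data known. Another 20 settings were tried, and 3 more that were chosen after seeing the data. The values of 1 pathway gene are not reported here.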

Additional observations from a re-analysis of the deposited data

Results flagged for a closer look

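Dlk1, a Delta-like protein of progenitors, moved in opposite directions between classes of the same libraries. In PTH against control its CPM ratio was 0.284 in fibroblasts and 0.381 in mural cells but 3.10 in chondrocytes. The fibroblast level went from 199.9 to 56.7 CPM and the chondrocyte level from 6.55 to 20.3 CPM. The difference between classes was not tested, and there is 1 library per group.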

How the results depend on the processing

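Of the member ratios recomputed under alternatives, single chondrocyte clusters included, 539 of 582 stayed within their 95% interval, 38 moved outside it, and 5 called ones changed side. No paired analysis was possible because each group held 1 library. The 5 were single chondrocyte clusters: in PTH against control, Notch2 was 0.815 in cluster 7 and Hes1 0.586 in cluster 0 and 0.913 in cluster 8; in YKL against PTH, Hes1 was 0.975 in cluster 3 and 0.589 in cluster 14.

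Counts of called members that moved by more than 1.5 times from the main count in brackets are given here. Smaller shifts ran from 2 to 4 for endothelial YKL against control, where a call was lost at the higher gene minimum and without the mixed subclusters, and from 2 to 4 for chondrocytes of PTH against control. Endothelial PTH against control (0) gave 3 at 5% mitochondrial UMIs, 1 at 20%, thinned, with no UMI minimum or without each gene's richest cell, and 2 at a lower fold threshold. Endothelial YKL against control (3) gave 6 with equal weight per cell, 5 with no minimum and 0 at 2-fold. Endothelial YKL against PTH (1) gave 0 with a higher gene minimum, with no doublet removal or at 2-fold, 3 at 20% mitochondrial or at the lower fold, 2 when clustered with the Notch genes, at resolutions 0.5 and 1.2, with no minimum or without the mixed subclusters, and 4 with equal weight. Mural cells (1) gave 2 with equal weight, 4 with no minimum and 0 at 2-fold. Fibroblasts (1) gave 3 at 20 UMIs, 6 with no minimum, 0 at 2-fold and 2 at the lower fold. Chondrocytes of PTH against control (3) gave 1 at 2-fold. YKL against control (1) gave 2 when clustered with the Notch genes, with no doublet removal, equal weight, 20 UMIs or clusters weighted equally, and 3 at resolution 1.2, with no minimum or at the lower fold. YKL against PTH (2) gave 1 thinned or at 2-fold, 5 at 20 UMIs and 6 with no minimum. Macrophages (0) gave 4 with no minimum and 1 at the lower fold. Fold thresholds and UMI minimums change what is counted; for the other settings the cause was not tested.

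Chondrocyte Hes1 kept its call in 16 of 16 pooled alternatives in each comparison, from 2.61 (thinned) to 5.13 in YKL against control. Endothelial Dll4 in YKL against control ranged from 1.29 to 1.76 and was past 1.5-fold in 11 of 13. Endothelial Notch3 in YKL against control was 0.323 without the richest cell of each library, and against PTH 0.340. Too few cells were left at 5% mitochondrial UMIs for mural cells, fibroblasts, macrophages and YKL endothelium, and for YKL endothelium when thinned.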

Other observations

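Schwann or glial cells, few in each library, had Notch1 at 137 CPM in control (26 cells) and 107 CPM in PTH (39 cells), and Hes1 at 109 and 144 CPM. In unnamed cluster 19, led by muscle genes, Hes1 reached 386 CPM in the 29 PTH cells. In unnamed cluster 15, Hes1 had 49.5, 102 and 179 CPM in control, PTH and YKL. In the vein-list endothelial subcluster of YKL (16 cells) Hes1 had 239 CPM (176 to 318).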
